A study of Mus musculus with 12 samples.

Results

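The genes described here are 10 chosen genes of corticosteroid reception, conversion and response, out of 19938 genes with a single symbol on the arrays. They are the glucocorticoid receptor gene Nr3c1, the mineralocorticoid receptor gene Nr3c2, the 11beta-hydroxysteroid dehydrogenase genes Hsd11b1 and Hsd11b2, and the steroid-induced genes Fkbp5, Zbtb16, Tsc22d3, Sgk1, Klf9 and Mt2. They were chosen by name for their known function, with earlier results of these data known. Each was read by exactly 1 probe set, so all 10 were measured and none was removed by a filter. RNA was taken from whole kidneys of mice at 3 weeks of age and hybridised to 12 Affymetrix arrays, 3 in each of 4 groups. PpargΔ/Δ mice and the mice labelled control were of a mixed C57BL6/SV129 background, and AZIP mice and their FVB control mice were of the FVB background. Each array was hybridised with the pooled kidney RNA of 3 mice, so that 36 mice stand behind the data, and the labels give no treatment before collection.

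PPARγ, the product of Pparg, is the nuclear receptor required for fat cells to form. The labels name the PpargΔ/Δ allele but give neither the deleted part of the gene nor the Cre line behind it, and they do not give the genotype of the control mice. AZIP is the usual name of a transgene whose protein blocks leucine zipper transcription factors in fat cells, and AZIP mice keep their Pparg gene. The Pparg probe set read 8.002, 8.195 and 8.013 in PpargΔ/Δ kidneys, against 7.90, 7.97 and 8.02 in control kidneys. Those values overlapped, and because the part of the gene that the probe set covers is not given here, they do not check the deletion.

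Corticosterone, the main glucocorticoid of mice, enters cells and binds the receptor encoded by Nr3c1, which sits in the cytoplasm with heat shock proteins and co-chaperones until hormone is bound, and then acts on genes in the nucleus. The mineralocorticoid receptor encoded by Nr3c2 binds corticosterone as tightly as aldosterone, and in the aldosterone-sensitive distal nephron it is kept free for aldosterone by the enzyme encoded by Hsd11b2, which turns corticosterone into an inactive steroid. The enzyme encoded by Hsd11b1 mostly works in the opposite direction and regenerates the active hormone inside the cell. The 6 steroid-induced genes are among the transcripts that commonly rise when these receptors are activated, and several of them also answer other signals, such as metals in the case of Mt2.

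In both mutant lines 2 steroid-induced genes were higher and the glucocorticoid receptor gene was lower than in controls, while the enzyme genes passed no test. Zbtb16 was 1.96-fold higher in PpargΔ/Δ than in control kidneys and 1.79-fold higher in AZIP than in FVB control kidneys. Fkbp5 was 1.39-fold and 1.48-fold higher in the same comparisons. Nr3c1 itself was lower in both lines, at 0.878 and 0.867 of its control. Hsd11b1 and Hsd11b2 lay within 0.02 of 0 on the log2 scale in both lines. Mt2 rose in PpargΔ/Δ kidneys and Tsc22d3 rose in AZIP kidneys, each with a value that missed the threshold in the other line.

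**Figure D1:**
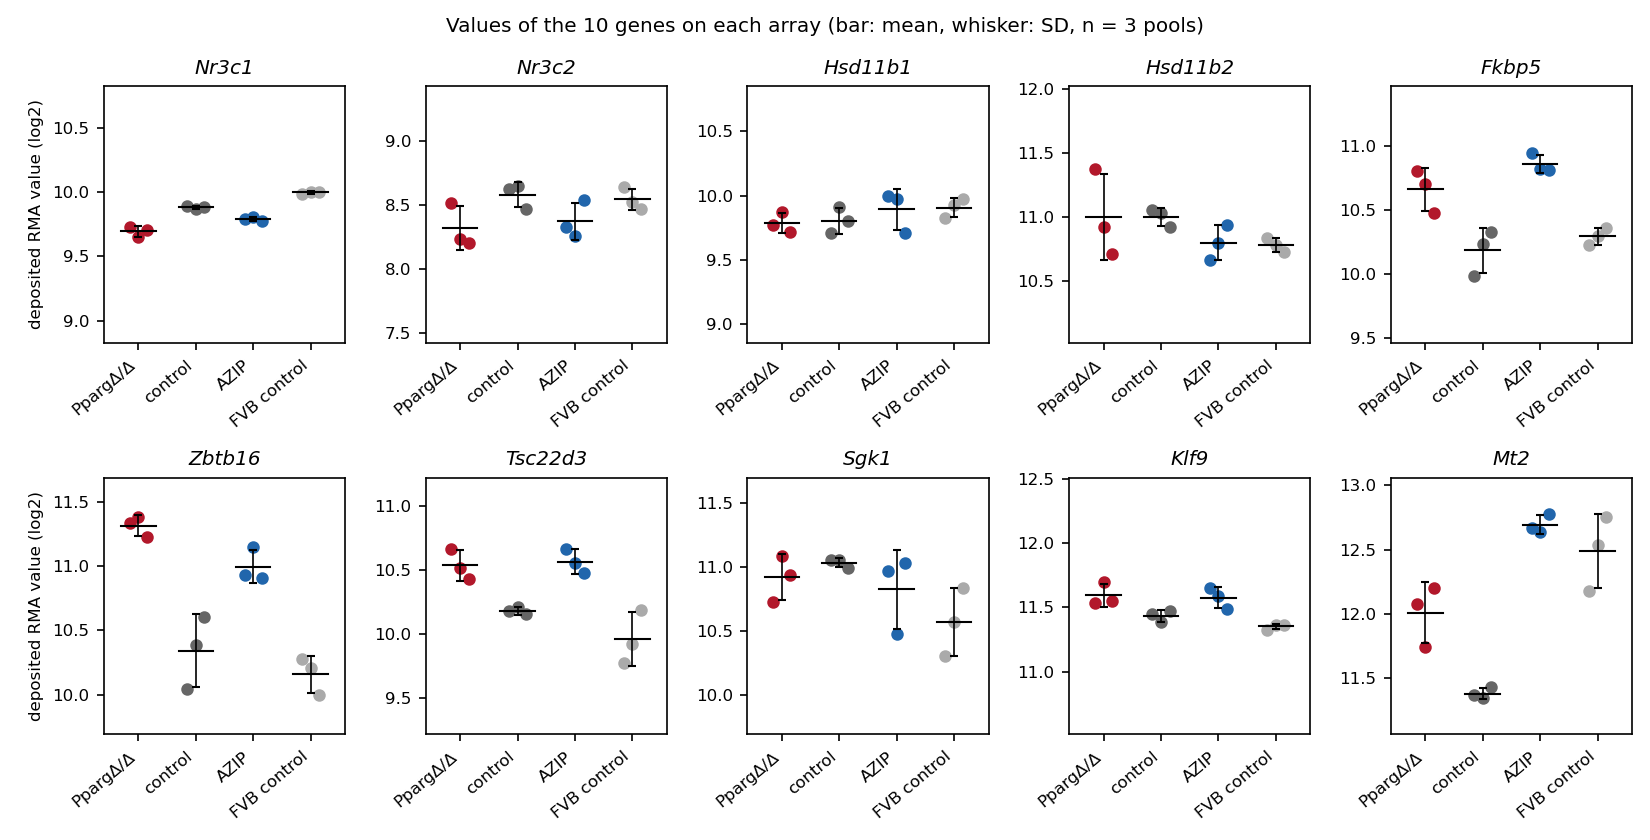
Deposited RMA values (log2, vertical axes spanning 2 units around each gene's own values, not starting at 0) of the 10 genes on each of the 12 arrays, by group. Points are arrays, bars are means and whiskers are SDs (n = 3 pools); for Zbtb16 the PpargΔ/Δ arrays lie at 11.23 to 11.38 and the control arrays at 10.04 to 10.60, and the AZIP arrays lie at 10.91 to 11.15 and the FVB control arrays at 9.997 to 10.275.

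All values are on the log2 scale of the deposited RMA output, in which 1 unit is a doubling, and a level of one probe set cannot be set against the level of another. Differences are those of the mutant from its control, with SEs from a limma fit of 4 group means to all 12 arrays. Benjamini-Hochberg adjustment ran over the 19938 genes, and genes with an adjusted p under 0.05 are the ones called. The 2 mutant comparisons share no array but share the estimate of each gene's spread. Arrays within a group correlated at 0.996 to 0.998, and array medians lay between 7.17 and 7.21. The labels do not say whether the pools of a group came from separate litters or days, so p-values measure the spread between these pools. In whole kidney, fewer cells of a type and less RNA per cell cannot be told apart.

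In the PpargΔ/Δ comparison 4 of the 10 genes were called, 3 higher and 1 lower, where 5.29% of all genes were called, 2.67% higher and 2.62% lower. In the AZIP comparison 4 of the 10 were called as well, again 3 higher and 1 lower, where 2.43% of all genes were called, 1.3% higher and 1.13% lower. Fkbp5, Zbtb16 and Nr3c1 were called in the same direction in both lines, which was true of 1.23% of all genes. At an unadjusted p under 0.05 stood 7 of the 10 in the PpargΔ/Δ comparison, as did 20.4% of all genes, and 5 of the 10 in the AZIP comparison, as did 16.4%. The median difference of the 10 genes was 0.08 in PpargΔ/Δ and 0.21 in AZIP kidneys, where the medians over all genes were -0.0089 and 0.0028. Because the 10 genes were chosen with earlier results of these data known, these counts and medians are only a description. The direction of the calls over all genes depends on the scaling: when all arrays were given equal medians, 38.6% of the calls in the PpargΔ/Δ comparison were higher instead of 50.4%, and 38.4% instead of 53.6% in the AZIP comparison, while the same number of the 10 genes was called. The count of called genes among the 10 also rested on single arrays. It was 2 without PpargΔ/Δ replicate 2, PpargΔ/Δ replicate 3, control replicate 2 or control replicate 3, and 1 without control replicate 1. In the AZIP comparison it was 1 without FVB control replicate 1 or FVB control replicate 2, and 3 without AZIP replicate 2, AZIP replicate 3 or FVB control replicate 3. Zbtb16 was called in every one of these fits.

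**Figure D2:**
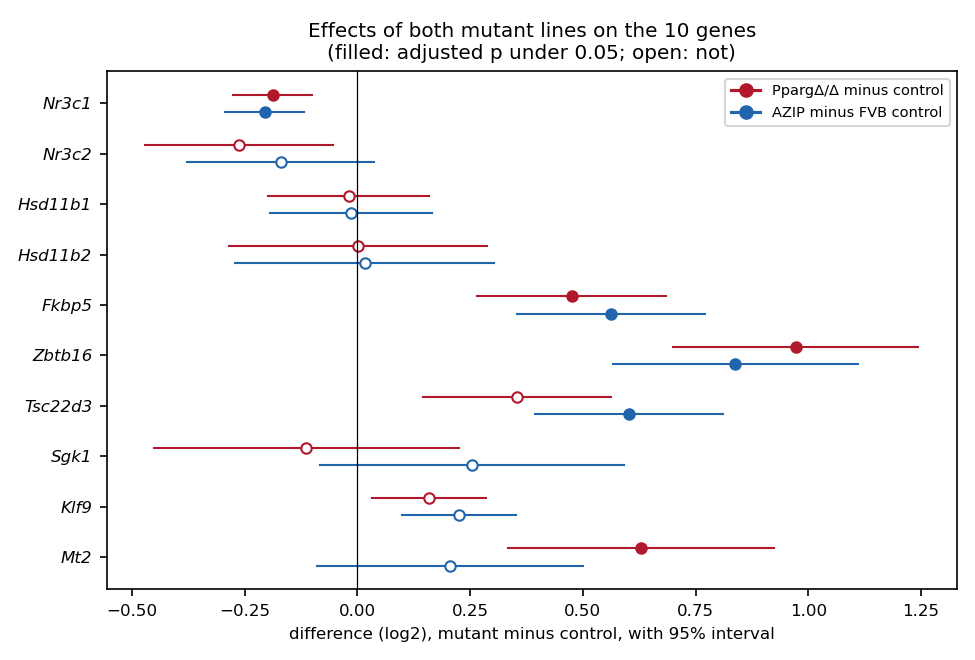
Differences between mutant and control kidneys (log2, horizontal axis) for the 10 genes, PpargΔ/Δ minus control in red above AZIP minus FVB control in blue, with 95% intervals from limma. Filled points have an adjusted p under 0.05: Nr3c1 lies to the left of 0 and Fkbp5 and Zbtb16 to the right in both lines, and both Hsd11b1 and Hsd11b2 sit at 0.

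Among the receptors, Nr3c1 read 9.73, 9.65 and 9.71 in PpargΔ/Δ kidneys, against 9.89, 9.87 and 9.88 in control kidneys. It read 9.79, 9.81 and 9.77 in AZIP kidneys, against 9.986, 10.002 and 10.002 in FVB control kidneys. Every mutant array lay below every array of its own controls, and the arrays of a group differed by at most 0.08. The difference was -0.19 ± 0.04 in PpargΔ/Δ kidneys (SE, n = 3 pools per group, limma adjusted p = 0.0214) and -0.21 ± 0.04 in AZIP kidneys (limma adjusted p = 0.0243), so the transcript was lower by little but evenly. Both calls were close to the threshold. The first was lost without PpargΔ/Δ replicate 2 or 3 or any of the control replicates (limma adjusted p up to 0.0805), and the second without AZIP replicate 2 or 3 or any of the FVB control replicates (limma adjusted p up to 0.0931). In the fits that lost the call the difference stayed between -0.19 and -0.17 in PpargΔ/Δ kidneys and between -0.22 and -0.20 in AZIP kidneys.

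Nr3c2, the mineralocorticoid receptor gene, read 8.52, 8.24 and 8.20 in PpargΔ/Δ kidneys, against 8.62, 8.65 and 8.47 in control kidneys. It read 8.33, 8.26 and 8.54 in AZIP kidneys, against 8.64, 8.52 and 8.47 in FVB control kidneys. In both lines 2 of the 3 mutant arrays lay below all control arrays and the other lay among them. The differences of -0.26 ± 0.10 (95% interval -0.47 to -0.05, limma adjusted p = 0.141) and -0.17 ± 0.10 (-0.38 to 0.04, limma adjusted p = 0.419) did not pass the threshold. Without PpargΔ/Δ replicate 1, the highest array of its group, Nr3c2 was called lower (limma adjusted p = 0.0391).

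The 2 enzyme genes showed no call in either line. Hsd11b1 read 9.78, 9.87 and 9.71 in PpargΔ/Δ kidneys, against 9.71, 9.91 and 9.80 in control kidneys, and 9.999, 9.972 and 9.711 in AZIP kidneys, against 9.83, 9.92 and 9.97 in FVB control kidneys. The groups overlapped in both backgrounds, with differences of -0.02 ± 0.08 (95% interval -0.20 to 0.16, limma adjusted p = 0.928) and -0.01 ± 0.08 (-0.19 to 0.16, limma adjusted p = 0.962). Hsd11b2 read 11.37, 10.92 and 10.71 in PpargΔ/Δ kidneys, against 11.05, 11.03 and 10.92 in control kidneys, and 10.67, 10.80 and 10.94 in AZIP kidneys, against 10.84, 10.79 and 10.73 in FVB control kidneys. PpargΔ/Δ replicate 1 was the highest and PpargΔ/Δ replicate 3 the lowest of the 6 arrays of that background, so the mutant group was wider than its controls (SD 0.34 against 0.07). The differences of 0.0014 ± 0.13 (-0.29 to 0.29, limma adjusted p = 0.997) and 0.02 ± 0.13 (-0.27 to 0.30, limma adjusted p = 0.975) leave room for changes of up to these bounds in either direction.

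Zbtb16 had the largest difference of the 10 genes in both lines. This gene, which encodes a zinc finger transcription factor strongly induced by glucocorticoids in many cell types, read 11.33, 11.38 and 11.23 in PpargΔ/Δ kidneys, against 10.04, 10.39 and 10.60 in control kidneys. It read 10.93, 11.15 and 10.91 in AZIP kidneys, against 10.275, 10.204 and 9.997 in FVB control kidneys. All mutant arrays were above all of their controls, and the gap between the groups, 0.63 between PpargΔ/Δ replicate 3 and control replicate 3 and 0.64 between AZIP replicate 3 and FVB control replicate 1, was wider than the range of either group in both backgrounds. Zbtb16 rose by 0.97 ± 0.12 in PpargΔ/Δ kidneys (limma adjusted p = 0.00187) and by 0.84 ± 0.12 in AZIP kidneys (limma adjusted p = 0.00948).

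Fkbp5, a co-chaperone that binds the receptor complex and lowers its affinity for hormone, read 10.80, 10.70 and 10.47 in PpargΔ/Δ kidneys, against 9.99, 10.24 and 10.33 in control kidneys. It read 10.94, 10.82 and 10.81 in AZIP kidneys, against 10.22, 10.30 and 10.36 in FVB control kidneys. The groups did not overlap in either background, although PpargΔ/Δ replicate 3 and control replicate 3 were close to each other. Fkbp5 rose by 0.47 ± 0.10 in PpargΔ/Δ kidneys (limma adjusted p = 0.0178) and by 0.56 ± 0.10 in AZIP kidneys (limma adjusted p = 0.0150). The first call was lost without PpargΔ/Δ replicate 2 (limma adjusted p = 0.0613) or control replicate 1 (limma adjusted p = 0.0661), and the second without FVB control replicate 1 (limma adjusted p = 0.0730) or 2 (limma adjusted p = 0.0600).

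Tsc22d3, also known as GILZ, encodes a leucine zipper protein that dampens inflammatory signalling. It read 10.66, 10.51 and 10.43 in PpargΔ/Δ kidneys, against 10.18, 10.21 and 10.15 in control kidneys. It read 10.67, 10.55 and 10.47 in AZIP kidneys, against 9.77, 9.92 and 10.19 in FVB control kidneys. Mutant and control arrays did not overlap in either background, as held for 26.1% of all genes in the PpargΔ/Δ comparison and 22.5% in the AZIP comparison. Tsc22d3 rose by 0.60 ± 0.10 in AZIP kidneys (limma adjusted p = 0.0120), a call lost without FVB control replicate 1 (limma adjusted p = 0.0552) or 2 (limma adjusted p = 0.0531). The difference of 0.35 ± 0.10 in PpargΔ/Δ kidneys (95% interval 0.15 to 0.56) just missed the threshold (limma adjusted p = 0.0547), and was past it in 5 of 10 alternative fits that kept all arrays of the groups compared.

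Klf9, a Krüppel-like transcription factor gene induced by glucocorticoids and by thyroid hormone, read 11.53, 11.70 and 11.55 in PpargΔ/Δ kidneys, against 11.45, 11.38 and 11.47 in control kidneys. It read 11.65, 11.59 and 11.49 in AZIP kidneys, against 11.33, 11.36 and 11.37 in FVB control kidneys. All mutant arrays were higher than their controls, but by little, with differences of 0.16 ± 0.06 (95% interval 0.03 to 0.29, limma adjusted p = 0.141) and 0.22 ± 0.06 (0.10 to 0.35, limma adjusted p = 0.0679). Neither passed the threshold.

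Sgk1 encodes a kinase that raises the number of epithelial sodium channels at the surface of distal nephron cells and is induced through both receptors. It read 10.73, 11.09 and 10.94 in PpargΔ/Δ kidneys, against 11.05, 11.05 and 10.99 in control kidneys. It read 10.97, 10.47 and 11.03 in AZIP kidneys, against 10.31, 10.57 and 10.84 in FVB control kidneys. The groups overlapped in both backgrounds, with differences of -0.11 ± 0.15 (95% interval -0.45 to 0.22, limma adjusted p = 0.746) and 0.25 ± 0.15 (-0.08 to 0.59, limma adjusted p = 0.465).

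Mt2, a metallothionein that binds zinc and other metals, read 12.08, 11.74 and 12.20 in PpargΔ/Δ kidneys, against 11.36, 11.34 and 11.43 in control kidneys. It read 12.67, 12.64 and 12.78 in AZIP kidneys, against 12.18, 12.54 and 12.75 in FVB control kidneys. In the mixed background the groups did not overlap, and in the FVB background AZIP arrays overlapped FVB control replicate 3. Mt2 rose by 0.63 ± 0.13 in PpargΔ/Δ kidneys (1.55-fold, limma adjusted p = 0.0222), while its difference in AZIP kidneys was 0.21 ± 0.13 (95% interval -0.09 to 0.50, limma adjusted p = 0.507). The call was lost without PpargΔ/Δ replicate 1 or 3 or any one of the control replicates (limma adjusted p up to 0.0824).

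The difference between the effects of the 2 lines was tested directly. None of the 10 genes passed the threshold (limma, adjusted p), where 4 of 19938 genes did, or 0.0201%, and 1 of the 10 had an unadjusted p under 0.05, as did 5.82% of all genes. This was Mt2, whose effect was larger in PpargΔ/Δ than in AZIP kidneys by 0.42 ± 0.19 (95% interval 0.0068 to 0.84, limma adjusted p = 0.849). For Tsc22d3 the difference of the effects was -0.25 ± 0.14 (limma adjusted p = 0.877) and for Sgk1 -0.37 ± 0.22 (limma adjusted p = 0.881). For Zbtb16, Fkbp5 and Nr3c1 the intervals of this difference ran from -0.25 to 0.52, from -0.38 to 0.21 and from -0.11 to 0.14. The calls that were made in only one line, for Mt2 and Tsc22d3, were therefore not shown to differ between the lines.

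The levels of the controls of the 2 backgrounds were compared to place these differences, with strain and group of origin inseparable. Mt2 was the only one of the 10 genes called, 2.16-fold higher in FVB control than in control kidneys (1.11 ± 0.13, limma adjusted p = 0.00045), where 7.22% of all genes were called, 3.5% of all genes as higher. Sgk1 was at -0.46 ± 0.15 (limma adjusted p = 0.107), Tsc22d3 at -0.22 ± 0.10 (limma adjusted p = 0.226) and Nr3c1 at 0.11 ± 0.04 (limma adjusted p = 0.122). Mt2 in PpargΔ/Δ kidneys averaged 12.01 ± 0.24 and in FVB control kidneys 12.49 ± 0.29 (SD, n = 3 each).

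Promoter windows of RefSeq (build GRCm38.p6, 250 bases before to 50 after an annotated start) were available for 7 of the 10 genes, in 14 windows. Nr3c1, Hsd11b2 and Zbtb16 were not among the windows used here. They were searched on both strands for the full glucocorticoid response element, the arms AGAACA and TGTTCT with 3 bases of any kind between them, and for the single arm TGTTCT. The full element was found in 1 of the 14 windows, the fifth of 6 annotated starts of Sgk1, and in 3 of all 32851 windows (0.00913%). The single arm is in 19% of all windows, and among the 14 it was in 3 Sgk1 windows and 1 Tsc22d3 window. The metal response element cores TGCACNC and TGCGCNC are in 12.6% and 15.4% of all windows, the E-box CACGTG in 7.15% and the D-box TTATGCAA in 0.743%. Each match is a description of the letters in the window, and no match says nothing of sites elsewhere.

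The windows of Sgk1, Tsc22d3, Fkbp5 and Mt2 are shown because these 4 genes differ in their matches. Of the 6 Sgk1 windows 1 holds the full element, and the Fkbp5 window holds neither the element nor its arm. The arrays do not show which start is used in the kidney, and whether a match bears on the response was not tested. The Sgk1 window is chr10:21993640-21993939 on the plus strand, with the full element, another arm and an E-box that overlaps that arm in capitals. The Tsc22d3 window is chrX:140600473-140600772 on the minus strand, with the arm 185 bases before the start in capitals. The Fkbp5 window is chr17:28486100-28486399 on the minus strand, with an E-box in capitals. The Mt2 window is chr8:94172368-94172667 on the plus strand, with 4 metal response element cores in capitals, 2 of each kind and both strands counted.
Sgk1: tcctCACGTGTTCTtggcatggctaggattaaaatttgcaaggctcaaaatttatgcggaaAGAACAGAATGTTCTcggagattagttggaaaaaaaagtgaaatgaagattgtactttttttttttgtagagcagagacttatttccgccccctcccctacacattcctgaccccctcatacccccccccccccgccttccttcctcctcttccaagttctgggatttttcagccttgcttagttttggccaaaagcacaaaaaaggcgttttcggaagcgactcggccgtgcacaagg
Tsc22d3: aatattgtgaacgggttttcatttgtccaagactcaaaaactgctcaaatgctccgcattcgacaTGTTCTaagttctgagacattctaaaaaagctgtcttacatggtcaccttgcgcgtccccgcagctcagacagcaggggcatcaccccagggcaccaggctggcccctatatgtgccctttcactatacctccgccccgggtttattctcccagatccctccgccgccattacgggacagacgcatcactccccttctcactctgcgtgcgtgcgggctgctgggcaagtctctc
Fkbp5: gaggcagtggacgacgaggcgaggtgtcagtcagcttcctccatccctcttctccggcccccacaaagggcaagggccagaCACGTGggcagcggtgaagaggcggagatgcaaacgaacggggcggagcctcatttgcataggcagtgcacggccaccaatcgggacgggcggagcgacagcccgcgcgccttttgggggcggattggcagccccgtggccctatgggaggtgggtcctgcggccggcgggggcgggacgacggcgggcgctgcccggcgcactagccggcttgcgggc
Mt2: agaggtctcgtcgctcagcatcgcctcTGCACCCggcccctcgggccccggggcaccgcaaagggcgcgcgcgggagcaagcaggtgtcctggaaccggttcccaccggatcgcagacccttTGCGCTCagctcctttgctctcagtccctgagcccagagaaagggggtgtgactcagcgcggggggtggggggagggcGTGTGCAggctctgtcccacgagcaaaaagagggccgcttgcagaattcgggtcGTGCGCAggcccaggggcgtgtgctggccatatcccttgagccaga

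The first base of the full element in the Sgk1 window lies 189 bases before the annotated start. In the Mt2 window the 4 cores begin 223, 128 and 50 bases before the start and 5 bases after it. The other windows searched, those of Nr3c2, Hsd11b1 and Klf9 and the remaining starts of Sgk1 and Tsc22d3, held no full element.

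The wider glucocorticoid response was read from 24 other genes known to be induced by these hormones, of which 23 were measured. The list was also chosen with earlier results of these data known. In PpargΔ/Δ kidneys 8 of the 23 rose and 3 fell, where 2.67% of all genes rose and 2.62% fell. Their median difference was 0.17, where the median of all genes was -0.0089. In AZIP kidneys 9 rose and none fell by limma's adjusted p, where 1.3% of all genes rose and 1.13% fell. At an unadjusted p under 0.05 in either direction stood 18 of the 23, as did 16.4% of all genes. The median was 0.34, where that of all genes was 0.0028. Ddit4, an inhibitor of mTOR signalling, rose 2.74-fold in PpargΔ/Δ kidneys (1.45 ± 0.21, limma adjusted p = 0.00374) and 2.91-fold in AZIP kidneys (1.54 ± 0.21, limma adjusted p = 0.00719). Map3k6, a kinase gene, rose by 0.56 ± 0.08 in PpargΔ/Δ and by 0.64 ± 0.08 in AZIP kidneys. Sesn1, a stress-induced gene, rose by 0.47 ± 0.07 in PpargΔ/Δ and by 0.63 ± 0.07 in AZIP kidneys, and Lpin1, a phosphatidate phosphatase gene, by 0.62 ± 0.15 in PpargΔ/Δ (limma adjusted p = 0.0351) and by 0.86 ± 0.15 in AZIP kidneys (limma adjusted p = 0.0154). The first Lpin1 call was lost without PpargΔ/Δ replicate 1 or 2 or any one of the control replicates (limma adjusted p up to 0.118), and the second without AZIP replicate 2 or any one of the FVB control replicates (limma adjusted p up to 0.0609). Cebpd, a C/EBP transcription factor gene, and Anxa1, which encodes the anti-inflammatory protein annexin A1, were named after their values were seen. Cebpd rose by 0.65 ± 0.11 in PpargΔ/Δ (limma adjusted p = 0.00825) and by 0.52 ± 0.11 in AZIP kidneys (limma adjusted p = 0.0331), and its AZIP call was lost without any one AZIP replicate or FVB control replicate 1 or 2 (limma adjusted p up to 0.144). Anxa1 was at 0.42 ± 0.10 in PpargΔ/Δ (limma adjusted p = 0.0307) and at 0.41 ± 0.10 in AZIP kidneys, where its limma adjusted p of 0.05 lay at the threshold. Its first call was lost without PpargΔ/Δ replicate 2 or 3 or any one of the control replicates (limma adjusted p up to 0.107), and its second without AZIP replicate 1 or 2 or any one of the FVB control replicates (limma adjusted p up to 0.153). The number that rose depended on single arrays. In PpargΔ/Δ kidneys it was 6 without any one PpargΔ/Δ replicate and 5 without any one control replicate, and in AZIP kidneys 5, 3 and 6 without AZIP replicates 1, 2 and 3 and 3, 4 and 6 without FVB control replicates 1, 2 and 3. The number that fell in PpargΔ/Δ kidneys was 3 without PpargΔ/Δ replicate 1 or control replicate 2, 2 without PpargΔ/Δ replicate 2 or 3 or control replicate 3, and 1 without control replicate 1.

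The genes of that list that fell in PpargΔ/Δ kidneys were Pdk4, Angptl4 and Tgm2, of which the last 2 were named after their values were seen. The Angptl4 call was lost without control replicate 1 (limma adjusted p = 0.0672), and the Tgm2 call without PpargΔ/Δ replicate 2 or 3 or control replicate 1 or 3 (limma adjusted p up to 0.134). The lowest difference of the list in AZIP kidneys was that of Fam107a, also named after its value was seen, at -0.66 ± 0.16 with all AZIP arrays below all FVB control arrays. It just missed the threshold (limma adjusted p = 0.0539), was past it in 7 of 10 alternative fits that kept all arrays of the groups compared and without FVB control replicate 3 (limma adjusted p = 0.0175), and was at -0.04 ± 0.16 in PpargΔ/Δ kidneys (limma adjusted p = 0.917). Pdk4, a kinase that restrains glucose oxidation, fell by 1.501 ± 0.231 in PpargΔ/Δ kidneys (limma adjusted p = 0.00502) and was at -0.62 ± 0.23 in AZIP kidneys (limma adjusted p = 0.196). Pdk4 and Angptl4 are also known targets of the PPAR receptors. Lcn2, a secreted siderophore-binding protein gene that also rises with inflammation and tubular injury, read 10.50, 9.29 and 9.69 in PpargΔ/Δ kidneys, against 7.88, 7.75 and 8.01 in control kidneys, and rose by 1.94 ± 0.24 (3.85-fold, limma adjusted p = 0.00184). In AZIP kidneys Lcn2 was at 0.87 ± 0.24 (limma adjusted p = 0.0847). Mt1, a metallothionein gene close in sequence to Mt2, rose by 0.58 ± 0.13 in PpargΔ/Δ kidneys (limma adjusted p = 0.0303) and was at 0.34 ± 0.13 in AZIP kidneys (limma adjusted p = 0.216). Its call was lost without PpargΔ/Δ replicate 1 or 3 or any one of the control replicates (limma adjusted p up to 0.0958), and whether the probes of Mt1 and Mt2 share transcripts was not tested.

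**Figure D3:**
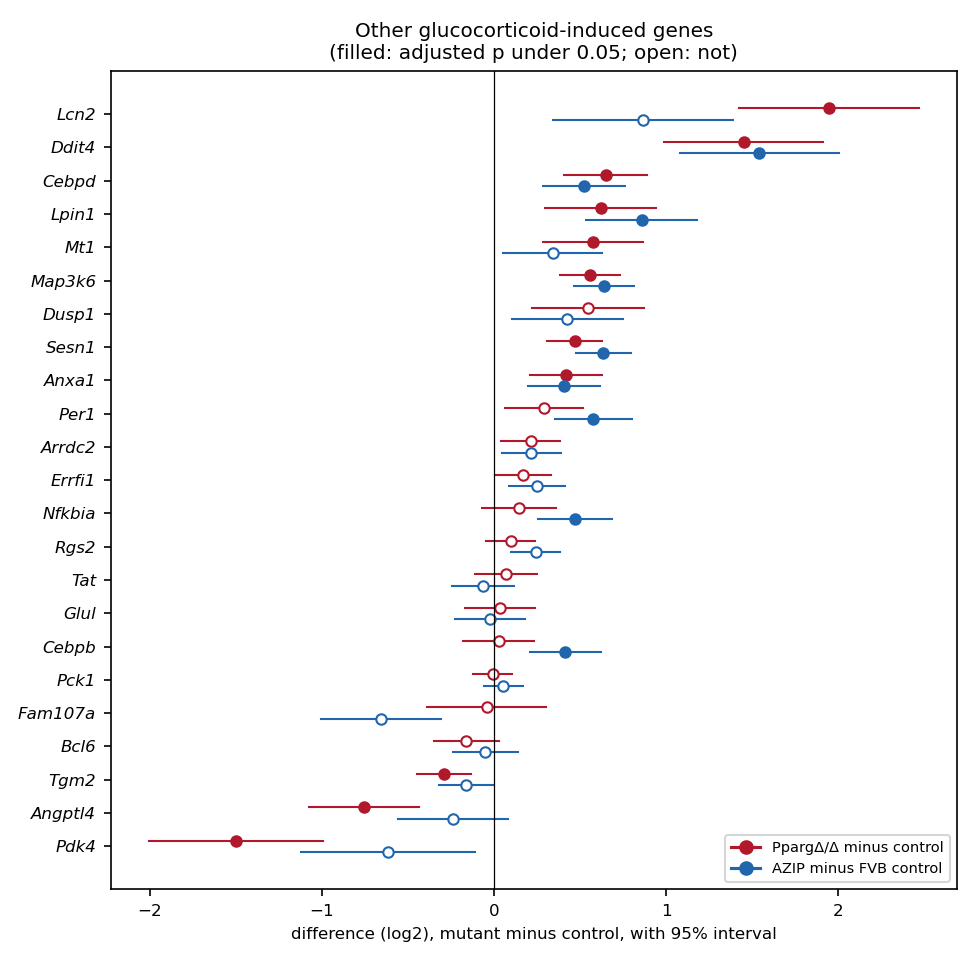
Differences between mutant and control kidneys (log2, horizontal axis) for 23 other glucocorticoid-induced genes, PpargΔ/Δ minus control in red above AZIP minus FVB control in blue, with 95% intervals from limma, ordered by the PpargΔ/Δ difference. Filled points have an adjusted p under 0.05; Ddit4, at 1.45 and 1.54, lies far to the right of 0 in both lines, whereas Lcn2 is filled in PpargΔ/Δ and Pdk4 lies furthest to the left there.

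The proteins that hold the receptor ready for hormone showed no call. Of 9 measured chaperone and co-chaperone genes none passed the threshold in either line (limma, adjusted p). An unadjusted p under 0.05 was seen for 1 in PpargΔ/Δ and 2 in AZIP kidneys, as it was for 20.4% and 16.4% of all genes. Fkbp4, a co-chaperone gene of that list, had the smallest p in both lines. It read 10.20, 10.15 and 10.02 in PpargΔ/Δ kidneys, against 10.32, 10.37 and 10.24 in control kidneys, a difference of -0.19 ± 0.06 (limma adjusted p = 0.0768). It was at -0.20 ± 0.06 in AZIP kidneys (limma adjusted p = 0.0885), and its mutant and control arrays did not overlap in either background. Of 9 measured coregulator genes 1 rose in each line, where 2.67% of all genes rose in the PpargΔ/Δ and 1.3% in the AZIP comparison. This was the coactivator gene Ppargc1a, by 0.28 ± 0.05 in PpargΔ/Δ kidneys (limma adjusted p = 0.00878) and by 0.26 ± 0.05 in AZIP kidneys (limma adjusted p = 0.0202). The AZIP call was lost without AZIP replicate 3, FVB control replicate 1 or FVB control replicate 2 (limma adjusted p up to 0.0959).

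Genes that handle the steroid or supply the cofactor of the enzyme encoded by Hsd11b1 were few, with 6 of 8 measured. Of the 6, 1 fell in each line, where 2.62% of all genes fell in the PpargΔ/Δ and 1.13% in the AZIP comparison. This was Abcb1a, which encodes P-glycoprotein, a pump that exports corticosteroids among other compounds. Abcb1a fell by 0.54 ± 0.10 in PpargΔ/Δ kidneys (limma adjusted p = 0.0144) and by 0.58 ± 0.10 in AZIP kidneys (limma adjusted p = 0.0169). The first call was lost without PpargΔ/Δ replicate 2 or 3 or control replicate 1 (limma adjusted p up to 0.0651), and the second without AZIP replicate 2 or 3 or FVB control replicate 1 or 2 (limma adjusted p up to 0.0730).

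Sodium and potassium transport under aldosterone was represented by 15 genes, 13 of them measured. In PpargΔ/Δ kidneys 3 of the 13 rose, where 2.67% of all genes did. These were Edn1, which encodes endothelin 1 (0.85 ± 0.08, limma adjusted p = 0.000509), and the sodium channel subunit genes Scnn1a (0.35 ± 0.05, limma adjusted p = 0.00527) and Scnn1g (0.23 ± 0.06, limma adjusted p = 0.0499). The Scnn1g call was lost without any one PpargΔ/Δ or control replicate (limma adjusted p up to 0.145). It held in 5 of 10 alternative fits that kept all arrays of the groups compared. The fits that lost it included equal array medians (limma adjusted p = 0.0709), quantile normalization (limma adjusted p = 0.0657) and the replicate number as a block (limma adjusted p = 0.0597). In AZIP kidneys Edn1 alone rose (0.77 ± 0.08, limma adjusted p = 0.00309), where 1.3% of all genes did. Scnn1a was at 0.22 ± 0.05 there (limma adjusted p = 0.0545). Edn1 read 8.02, 8.04 and 8.10 in PpargΔ/Δ kidneys, against 7.12, 7.35 and 7.13 in control kidneys, and 7.901, 8.176 and 8.004 in AZIP kidneys, against 7.13, 7.26 and 7.37 in FVB control kidneys. Both mutant groups stood wholly above their controls. The median difference of the 13 genes was 0.05 in PpargΔ/Δ and 0.11 in AZIP kidneys.

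Metal response genes were read beside Mt2. Of 7 measured in PpargΔ/Δ kidneys Mt1 rose, as given above, and the zinc exporter gene Slc30a1 fell by 0.37 ± 0.06 (limma adjusted p = 0.00878). Over all genes 2.67% rose and 2.62% fell there. In AZIP kidneys none of the 7 passed the threshold (limma, adjusted p), and 2 had an unadjusted p under 0.05, as did 16.4% of all genes. Slc30a1 was at -0.21 ± 0.06 in AZIP kidneys (limma adjusted p = 0.120). Mt1 and Slc30a1 are both known targets of the metal-sensing factor MTF1. Whether metals or MTF1 have a part in their differences was not tested.

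Markers of the cell types that could carry these genes were read in the same fit. The 9 principal cell markers stand for cells in which Hsd11b2 and Nr3c2 act. Their summed level was 12.96 to 13.03 in PpargΔ/Δ kidneys, against 12.63 to 12.81 in control kidneys. Of the 9 genes 4 rose, where 2.67% of all genes did. These were Aqp2 (0.48 ± 0.10, limma adjusted p = 0.0220), Scnn1g and, named after their values were seen, Aqp3 and Aqp4. Without control replicate 2 there were 2 of them and without PpargΔ/Δ replicate 1 there were 3, while none was called without PpargΔ/Δ replicate 2 or 3 or control replicate 1 or 3. The other 5 markers were not called there, with differences from 0.0006 for Gata3 to 0.17 for Elf5. The summed level gives most weight to markers that read high, such as Scnn1g and Aqp2, which averaged 10.60 and 10.37 in control kidneys. In AZIP kidneys the summed level was 12.54 to 12.83, against 12.52 to 12.55 in FVB control kidneys, and none of the 9 was called (limma, adjusted p), with 3 at an unadjusted p under 0.05. The summed level of the 10 proximal tubule markers was lower in both mutants, at 15.66 to 15.74 in PpargΔ/Δ against 15.80 to 15.91 in control kidneys and at 15.78 to 15.89 in AZIP against 15.94 to 15.98 in FVB control kidneys. Differences of single markers were above 0 for 1 of the 10 in PpargΔ/Δ and 0 of the 10 in AZIP kidneys, and none was called in either line (limma, adjusted p). An unadjusted p under 0.05 was seen for 6 in PpargΔ/Δ and 5 in AZIP kidneys, as it was for 20.4% and 16.4% of all genes. The 5 distal convoluted and connecting tubule markers measured had no call in either line (limma, adjusted p), with 1 at an unadjusted p under 0.05 in PpargΔ/Δ and 0 in AZIP kidneys, and their summed levels overlapped their controls. Whether these shifts have a part in the differences of the 10 genes was not tested.

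Adrenal tissue, which lies beside the kidney and is rich in steroid genes, was checked with 13 markers. Their summed level was 9.61 to 9.66 in PpargΔ/Δ kidneys, against 9.55 to 9.72 in control kidneys, and 9.72 to 9.82 in AZIP kidneys, against 9.65 to 9.74 in FVB control kidneys. Cyp11b1, which makes corticosterone in the adrenal cortex, read 5.07 to 5.24 in PpargΔ/Δ and 5.08 to 5.23 in control kidneys, and Cyp11a1 read 4.31 to 4.43 in PpargΔ/Δ and 4.50 to 4.62 in control kidneys, and in AZIP kidneys Cyp11b1 read 5.14 to 5.22, against 5.29 to 5.39 in FVB control kidneys. These values are below the array medians. Of the 13, 1 rose in PpargΔ/Δ kidneys, where 2.67% of all genes did. This was the corticotropin receptor gene Mc2r (0.42, limma adjusted p = 0.0244), named after its value was seen. Its call was lost without PpargΔ/Δ replicate 2 or any one of the control replicates. Mc2r averaged only 4.72 in PpargΔ/Δ and 4.30 in control kidneys, also below the array medians. When genes under percentile 25 were left out, 0 adrenal markers were called higher. None of the 13 was called in AZIP kidneys (limma, adjusted p), with 2 at an unadjusted p under 0.05, as were 16.4% of all genes. Mc2r is also expressed in fat.

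White fat markers, read because fat lies beside the kidney, had a summed level of 10.58 to 10.73 over 7 genes in PpargΔ/Δ kidneys, against 11.02 to 11.06 in control kidneys. Of the 7, 1 fell, where 2.62% of all genes did. This was the lipase gene Lipe (limma adjusted p = 0.00368), named after its value was seen. In AZIP kidneys the level was 11.12 to 11.38, against 11.05 to 11.17 in FVB control kidneys, with no call (limma, adjusted p). There 2 of the 7 had an unadjusted p under 0.05, as did 16.4% of all genes. Among the 7, the fatty acid binding protein gene Fabp4, also named after its value was seen, was at -0.34 ± 0.09 in PpargΔ/Δ kidneys (limma adjusted p = 0.0573) and at 0.26 ± 0.09 in AZIP kidneys (limma adjusted p = 0.176). It was the only one of the 7 above 0 in AZIP kidneys, where their median difference was -0.08, so the summed level and the median differ in sign there. The sum mostly follows Fabp4 and Lipe, which averaged 10.27 and 9.04 in control kidneys. The other markers of the 7 averaged 4.45 to 6.90 there, below the array medians, so the summed level says little of them or of fat beside the kidney. Adipoq, the adiponectin gene of fat cells, read 4.28 to 4.38 in PpargΔ/Δ kidneys, against 4.33 to 4.60 in control kidneys, and 4.28 to 4.61 in AZIP kidneys, against 4.42 to 4.51 in FVB control kidneys. Over 7 leukocyte markers PpargΔ/Δ replicate 1 stood apart at a summed level of 11.39, and none was called in either line (limma, adjusted p). An unadjusted p under 0.05 was seen for 1 in PpargΔ/Δ and 0 in AZIP kidneys, where it was seen for 20.4% and 16.4% of all genes. PpargΔ/Δ replicate 1 also held the highest values of its group for Lcn2, Hsd11b2, Fkbp5, Tsc22d3, Nr3c1 and Nr3c2 and the lowest for Sgk1 and Klf9. Without that array Zbtb16, Fkbp5, Mt2 and Nr3c1 differed by 0.96, 0.40, 0.59 and -0.20, of which Mt2 missed the threshold (limma adjusted p = 0.0527).

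The patterns of the 10 genes were compared across the 12 arrays as a description. After the mean of each background was removed, Zbtb16 had a Pearson correlation of 0.93 with Fkbp5 and of -0.94 with Nr3c1. Mutant and control arrays stand apart for these genes, so these values mostly repeat the differences between the groups. After the mean of each group was removed, the correlations of Nr3c1 with Fkbp5 and with Zbtb16 were -0.06 and -0.15, and that of Fkbp5 with Tsc22d3 was 0.55 (Spearman 0.62, and 0.65 over the 10 arrays left without the 2 farthest from the median of Fkbp5). Fkbp5 with Zbtb16 was at 0.51 (Spearman 0.28, and 0.05 without the same 2 arrays). Zbtb16 was at -0.30 with Tsc22d3, -0.52 with Sgk1, -0.40 with Mt2 and 0.13 with Klf9 (Spearman -0.31, -0.66, -0.59 and 0.16). The closest pair was Nr3c2 and Hsd11b2 at 0.85 (Spearman 0.84, and 0.68 over the 10 arrays left without PpargΔ/Δ replicate 1 and AZIP replicate 3). The pairs share arrays and pools, and no p-value was computed.

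**Figure D4:**
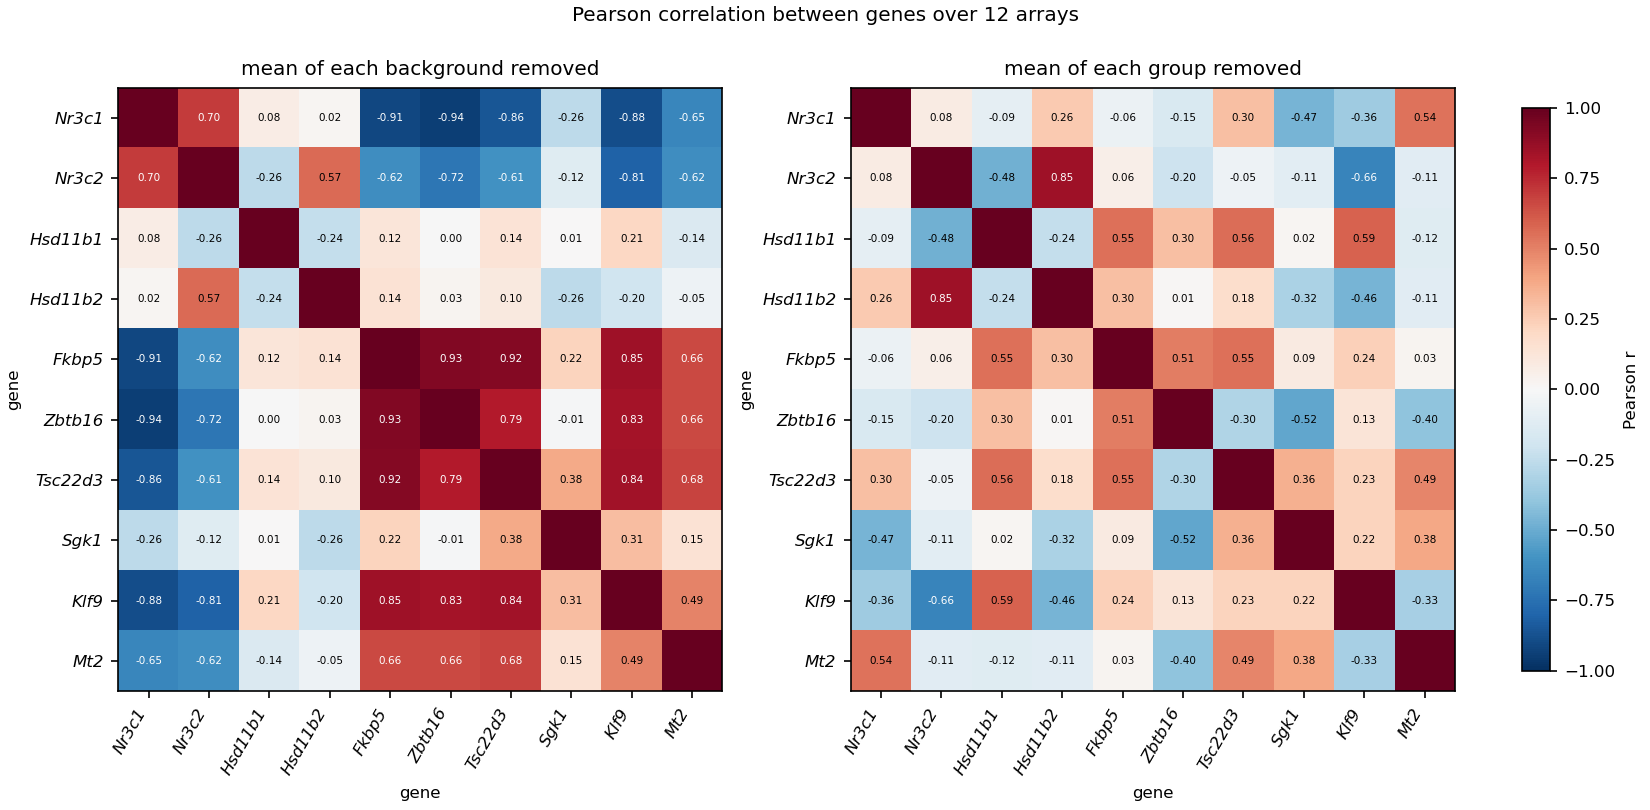
Pearson correlations between the 10 genes over the 12 arrays, with the mean of each background removed (left) and the mean of each group removed (right); colour and numbers give r. The block of Fkbp5, Zbtb16, Tsc22d3 and Klf9 against Nr3c1 on the left lies between -0.94 and -0.86, and on the right between -0.36 and 0.30, whereas Nr3c2 with Hsd11b2 is at 0.85 on the right.

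The genes whose pattern over the 12 arrays was most like that of 4 of the members, with the mean of each background removed, were listed by their Pearson correlation. These genes were picked as the closest of all genes, so high correlations over 12 arrays can arise by chance. For Zbtb16 they were Niban1 (0.97), Vegfd, Tmem100, Ap4b1 and Tomm40, and Tmem100 rose in both lines (0.996 ± 0.091 in PpargΔ/Δ and 0.938 ± 0.091 in AZIP kidneys). Removing the background mean leaves the difference between mutant and control in. Genes picked for likeness to Zbtb16 therefore tend to rise with it, and the rise of Tmem100 is not a separate result. For Fkbp5 they were the nuclear receptor gene Esrrb (0.97), Eif2ak3, Map3k6, Tnfaip6 and Trp53inp1. For Mt2 they were Mt1 (0.95), Lrrc26, Krt14, Tmcc2 and H2-Q2, and for Hsd11b2 Vmn1r232 (0.93), Rnasek, Rhbg, Snora62 and Calr.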

How the data were processed

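Each deposited value is a log2 expression value that, per the submitters' processing notes, the authors obtained by RMA with Affymetrix Expression Console. RMA corrects background, normalizes across arrays and summarises probes. The sources used here name no version, settings or genome build. No detection calls or scan dates come with the values, and the number of arrays limits the precision.

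Of 35556 probe sets 21789 had 1 gene symbol, 1621 several and 12146 none; 21698 symbols were updated by Entrez number and 91 kept as the platform gives them. For 999 genes with several probe sets the one of highest mean was kept, leaving 19938 genes. limma 3.58.1 in R 4.3.3 fitted them (8 residual degrees of freedom and 3.71 from the prior), and the fit was tested on simulated data. Up to 4 called genes per list and mutant comparison were named, by smallest p, or the 2 of smallest p where fewer than 2 were called. The members, lists and tests were chosen with earlier results of these data known.

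The control groups' same-numbered replicates deviated together (r = 0.25, 0.18 and 0.13), and pairing them changed no call of the 10 genes. Same-numbered PpargΔ/Δ and control replicates were at r = 0.18, 0.18 and 0.01, with other pairs from -0.26 to 0.15. Same-numbered AZIP and FVB control replicates were at -0.04, -0.10 and -0.01, with other pairs from -0.11 to 0.15. Whether the numbers mark a shared batch was not tested.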

Additional observations from a re-analysis of the deposited data

How the results depend on the processing

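Besides leaving out each array, alternatives were quantile normalization, equal array medians, low-expression filters, averaged probe sets, only the compared groups, a variance trend, a robust prior, array weights, the replicate block and an adjusted p under 0.10. Zbtb16 stayed called in both lines in all of them. With only the groups compared, 607 genes were called in the PpargΔ/Δ comparison instead of 1055 and 162 in the AZIP comparison instead of 485, with 3 and 2 of the 10 genes; Nr3c1 missed the threshold in both lines (limma adjusted p = 0.0841 and 0.0892), as did Fkbp5 in PpargΔ/Δ kidneys (0.0695) and Tsc22d3 in AZIP kidneys (0.0543). At an adjusted p under 0.10 the genes called numbered 1938 for PpargΔ/Δ, 1035 for AZIP and 7 for the difference of the effects. The AZIP count was 836 without genes under percentile 50 and 785 with a variance trend. The difference of the effects had 1 call without genes under percentile 50 and 1 with the replicate block, instead of 4. FVB control against control had 2219 calls with array weights instead of 1439, and 2 of the 10 genes with array weights or without genes under percentile 50. The replicate block changed no call of the 10 genes in any of the 4 contrasts, with 4, 4, 0 and 1 called.

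Leaving out 1 array gave 330 to 1084 calls for PpargΔ/Δ, 62 to 569 for AZIP, 0 to 9 for the difference and 852 to 947 for the controls, with 1 to 4, 1 to 4, 0 and 1 to 2 of the 10 genes. Signs turned for the following differences, none of them called. Hsd11b2 in PpargΔ/Δ kidneys was at -0.007 with quantile normalization, -0.0173 with equal medians and -0.0594 with array weights, and in AZIP kidneys at -0.0068 with equal medians and -0.0002 with array weights. Hsd11b1 in AZIP kidneys was at 0.0033 with array weights, and the difference of the effects for Nr3c1 at -0.0039 with quantile normalization. With 1 array left out, Hsd11b1 ran from -0.0679 to 0.0323 in PpargΔ/Δ and from -0.067 to 0.0772 in AZIP kidneys, and Hsd11b2 from -0.1838 to 0.1459 and from -0.0518 to 0.0825. The difference of the effects then ran from -0.0966 to 0.0476 for Hsd11b1, from -0.1997 to 0.1299 for Hsd11b2, from -0.1853 to 0.0051 for Fkbp5 and from -0.0164 to 0.2632 for Zbtb16. The causes were not tested.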

Other observations

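Clock genes were read beside the steroid targets, because corticosterone follows a daily rhythm and the time of collection is not in the labels. Of 12 measured clock genes 2 rose and 4 fell in PpargΔ/Δ kidneys, where 2.67% of all genes rose and 2.62% fell. Arntl, the BMAL1 gene of the activating limb, rose by 1.62 ± 0.11 (limma adjusted p = 8.33e-05) and read 8.30, 8.41 and 8.70 in PpargΔ/Δ kidneys, against 6.94, 6.77 and 6.84 in control kidneys. Nfil3, a repressor of D-box genes, rose by 1.37 ± 0.11 (limma adjusted p = 0.000213). Those that fell were the D-box activator genes Dbp (by 1.24 ± 0.19, limma adjusted p = 0.00456) and Tef (by 0.39 ± 0.08, limma adjusted p = 0.0220) and, named after their values were seen, Per3 and Nr1d2. Only 1 of these 4 was called lower without PpargΔ/Δ replicate 2 or 3 or control replicate 1 or 2, and 2 were without control replicate 3.

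In AZIP kidneys 3 of the 12 rose and none fell by limma's adjusted p, where 1.3% of all genes rose and 1.13% fell. At an unadjusted p under 0.05 stood 8 of the 12, as did 16.4% of all genes. Arntl rose by 0.77 ± 0.11 (limma adjusted p = 0.00924), and read 8.51, 8.15 and 8.39 in AZIP kidneys, against 7.69, 7.45 and 7.61 in FVB control kidneys. Nfil3 rose by 0.68 ± 0.11 (limma adjusted p = 0.0128) and Per1, a clock gene that glucocorticoids also induce, by 0.58 ± 0.10 (limma adjusted p = 0.0186). Only 2 of these calls were left without AZIP replicate 2 or FVB control replicate 1 or 2. Dbp was at -0.75 ± 0.19 (limma adjusted p = 0.0595). The 2 control groups also differed from each other in these genes. Of the 12, 1 was called higher in FVB control than in control kidneys, Arntl (0.735 ± 0.112, limma adjusted p = 0.00202). Another 1 was called lower there, Per1 (-0.62 ± 0.10, limma adjusted p = 0.00357). The part of the clock genes in the differences of the steroid targets was not tested.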
